A study of Gallus gallus with 2 samples.

Results

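The cytosolic ribosomal protein genes encode the proteins of the large and the small subunit of the ribosome that works in the cytoplasm. They were taken here as every listed gene whose whole symbol is RPL or RPS and a number, with or without a short suffix (A, X, Y or L and a digit), together with RPLP0, RPLP1, RPLP2 and RPSA. The rule found 67 of 15073 listed genes, 39 of the large and 28 of the small subunit. It uses names only and no measured value. All 67 had an FPKM (fragments per kilobase of transcript, scaled to a fixed number of mapped fragments) of at least 1 in 1 or both libraries and passed the filter on low values. The table of chicken genes of RefSeq (assembly GRCg7b) held 61 of the symbols directly and 3 as a synonym of another symbol (RPSA, RPS4 and RPL26), and did not hold the other 3. Of the 71 symbols in that table that fit the same rule, 8 match no member and were not analysed here, so that sums and shares for the subunits do not cover every ribosomal protein.

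The libraries are from the breast muscle of 12-week-old chickens of the Xichuan black-bone strain, as the sample labels and the methods state, although the title of the series speaks of skin. Birds of the control group ate the basal diet alone and those of test group IV the same diet with 0.8% added tyrosine, both starting as chicks of 1 day, and all were fasted before sampling. RNA of 3 birds was pooled per group and sequenced as 1 library, so there is no replicate, no test between the diets and no replicate check on any value below. The sex of the pooled birds is not given in the sources used here.

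A ribosome contains most of its proteins in about equal number, and most of its genes are expressed in almost every cell. In vertebrates the mRNAs of these proteins begin with a terminal oligopyrimidine (5′ TOP) tract, through which their translation is raised when nutrients activate the mTOR pathway. Many of the genes also carry small nucleolar RNAs, which guide the chemical modification of ribosomal RNA, inside their introns.

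The depth was 13135159 fragments for the control library and 14318101 for that of test group IV. Ratios are FPKM of test group IV divided by FPKM of the control group and are given on the log2 scale, so that positive values mean higher in test group IV. The 95% interval of a single gene was calculated by the exact Clopper-Pearson method from its fragments in the 2 libraries. Fragments are not corrected for PCR copies, so intervals cover counting error only and leave out the variation between birds and library preparations. The ratio was calculated for 10973 genes, and their median log2 ratio was 0.09 (SD over genes 0.54), so that the typical gene already lay above 0. Of the muscle markers, TNNT3 (9943 and 9424 FPKM in the control group and test group IV) and TNNI2 (8007 and 8638 FPKM), both fast troponin genes, were among the most abundant transcripts. PVALB was close to 0, with 1 and 5 fragments, and the other 5 of the 8 skeletal muscle markers were not found by symbol.

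Most ribosomal protein genes were slightly higher in test group IV. The ratio was above 1 for 57 of the 67 members (85.1%), compared with 60.8% of all genes tested, and the median log2 ratio of the members was 0.20 (quartiles 0.09 and 0.29), a median ratio of 1.15. The differences were small. No member was 2-fold higher or lower, compared with 3.11% and 2.98% of all genes tested (6.09% in all), and the members ranged from -0.25 for RPL4 to 0.69 for RPS29. Levels at least 25% above those of the control group were found for 13 of the 67 members (7 of the large and 6 of the small subunit), compared with 24.1% of all genes tested. In the other direction, the control level exceeded that of test group IV by at least 25% for 0 members, compared with 15.2% of all genes. Past 1.5-fold, 3 members were higher and 0 lower, compared with 10.1% and 7.93% of all genes. The counting interval lay above a ratio of 1 for 49 members and below it for 5, against 28.7% and 15.3% of all genes tested, whose median was 431 fragments in both libraries together, compared with 3128 for the members. It lay above the median of all genes for 37 members and below it for 10, against 19.6% and 21.5% of all genes. When the libraries were scaled by the median ratio of all genes, 49 members (73.1%) were above 1, compared with 50.4% of all genes, and the median log2 ratio of all members was 0.11. The same scaling left 5 members at least 25% above the control group, compared with 17.2% of all genes, and gave 1 with a control level at least 25% above test group IV, compared with 19.7%.

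**Figure D1:**
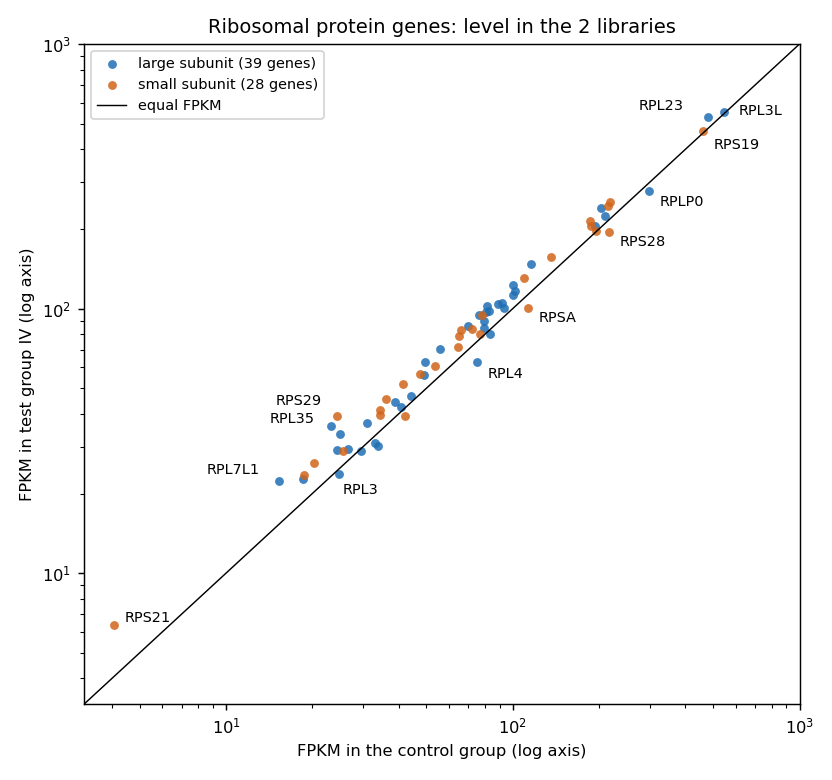
FPKM of the 67 ribosomal protein genes in the control group (horizontal, log axis) against test group IV (vertical, log axis), with 1 point per gene and the line of equal FPKM. Of the points, 57 lie above the line and 10 below it, and RPS21 stands alone at the low end with 4.08 and 6.35 FPKM.

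The medians of the subunits were close to each other. The large subunit had a median log2 ratio of 0.19 (quartiles 0.08 and 0.29, 39 genes) and the small subunit of 0.21 (quartiles 0.15 and 0.29, 28 genes), a difference of -0.02 between the medians. The ratio was above 1 for 32 of 39 large subunit genes and 25 of 28 small subunit genes. The genes of a library are not replicates, so the difference between the subunits has no test. The summed FPKM of the large subunit was 3889 for the control group and 4282 for test group IV, a ratio of 1.10. For the small subunit the sums were 2842 and 3116, also a ratio of 1.10. A sum weights the genes by level, and these ratios were below the median ratios of 1.14 and 1.16. After median ratio scaling both ratios of sums were 1.03. The members took 1.11% of all counted fragments for the control group (exact 95% interval from 1.11% to 1.12%) and 1.22% in test group IV (from 1.21% to 1.22%). Large subunit genes took 0.708% and 0.766% of the fragments, and small subunit genes 0.405% and 0.450%, respectively. In fragments scaled for depth, the ratio was 1.083 for the large subunit (95% counting interval from 1.073 to 1.092). For the small subunit it was 1.112 (from 1.099 to 1.125), so the equal ratio of 1.10 holds for FPKM sums only.

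**Figure D2:**
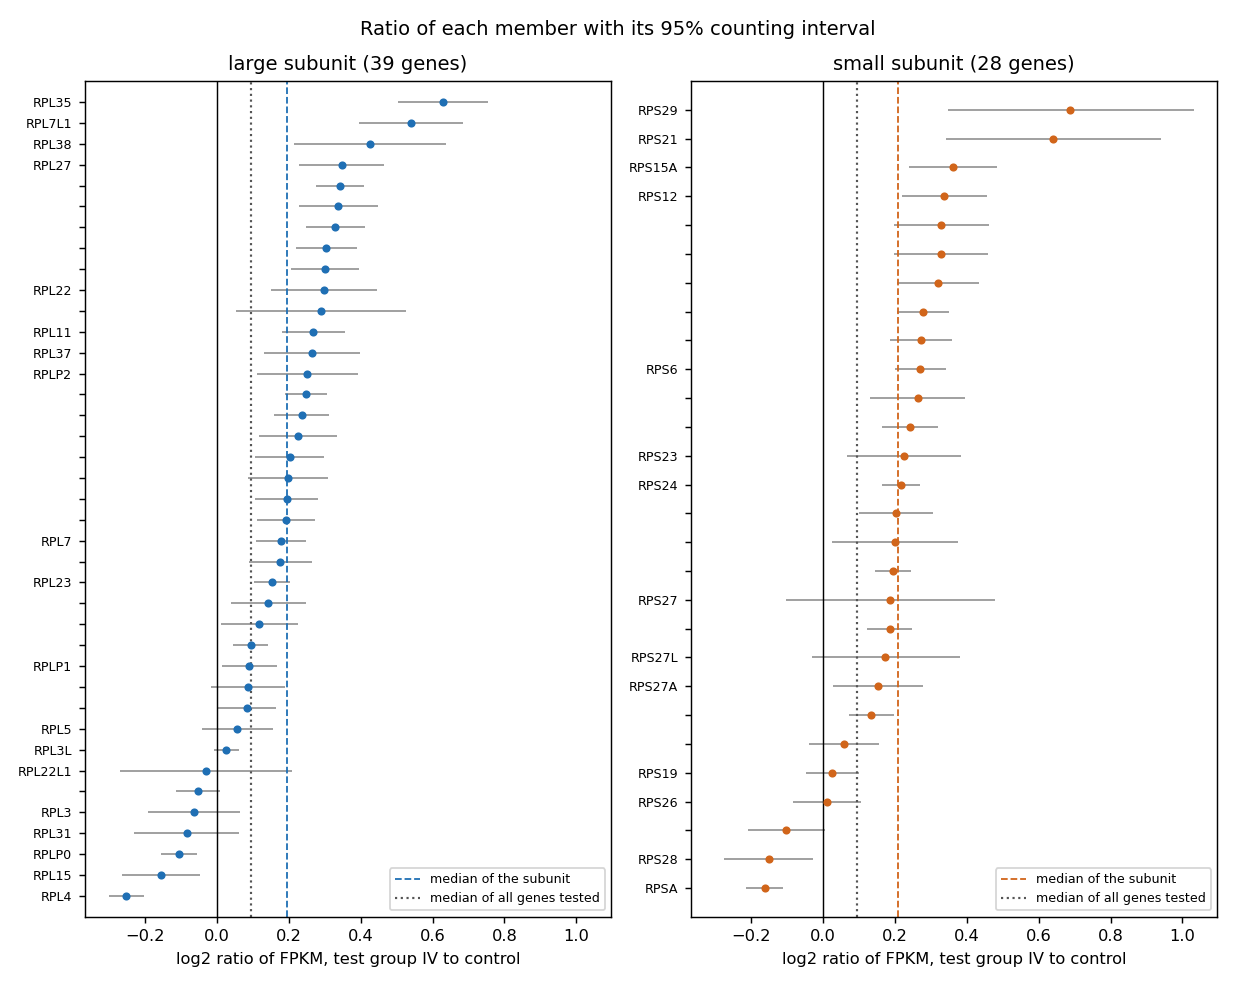
Log2 ratio of FPKM of each large subunit gene (left, 39 genes) and small subunit gene (right, 28 genes), with bars for the exact 95% counting interval and names for the genes described in the text. The dashed lines mark the subunit medians (0.19 and 0.21), the dotted lines the median of all genes tested (0.09), and the points run from RPL4 at -0.25 to RPS29 at 0.69.

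The spread between members was larger than counting error alone gives. The SD of the log2 ratio was 0.19 over the members, where counting error would give 0.06. It was 0.18 in the large and 0.19 in the small subunit, where counting error would give 0.06 and 0.07, respectively. The MAD, scaled to match an SD, was 0.16 for the members, compared with 0.34 for all genes tested and 0.24 for the 401 genes of 100 or more FPKM on average. It was 0.18 for the mitochondrial ribosome (61 genes) and 0.09 for the proteasome (25 genes), the latter narrower than that of the members. Counting error also differed between most of these sets. It would give an SD of 0.30 over all genes tested and 0.04 over the 401 abundant genes. For the mitochondrial ribosome it would give 0.13. The MADs of all genes, the abundant genes and the mitochondrial ribosome thus do not compare the spread beyond counting error. For the proteasome counting error would give 0.07, close to the 0.06 of the members. The SD over the proteasome genes was 0.15, compared with 0.19 over the members. The interval of 21 of 39 large subunit genes and 11 of 28 small subunit genes left out the median of their own subunit. Over all genes tested, the interval lay above the median of all genes for 19.6% and below it for 21.5%. These genes had fewer fragments, with a median of 431 in both libraries together, compared with 3128 for the members. A member was called an outlier when it lay more than 3 scaled MADs from its subunit median and its interval left that median out. This held for 4 small subunit genes (RPS29, RPS21, RPS28 and RPSA) and for no large subunit gene. The share of all genes past the same rule was not calculated. The scaled MAD was 0.11 in the small and 0.16 in the large subunit, so that the same distance counts for more in the small subunit.

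**Figure D3:**
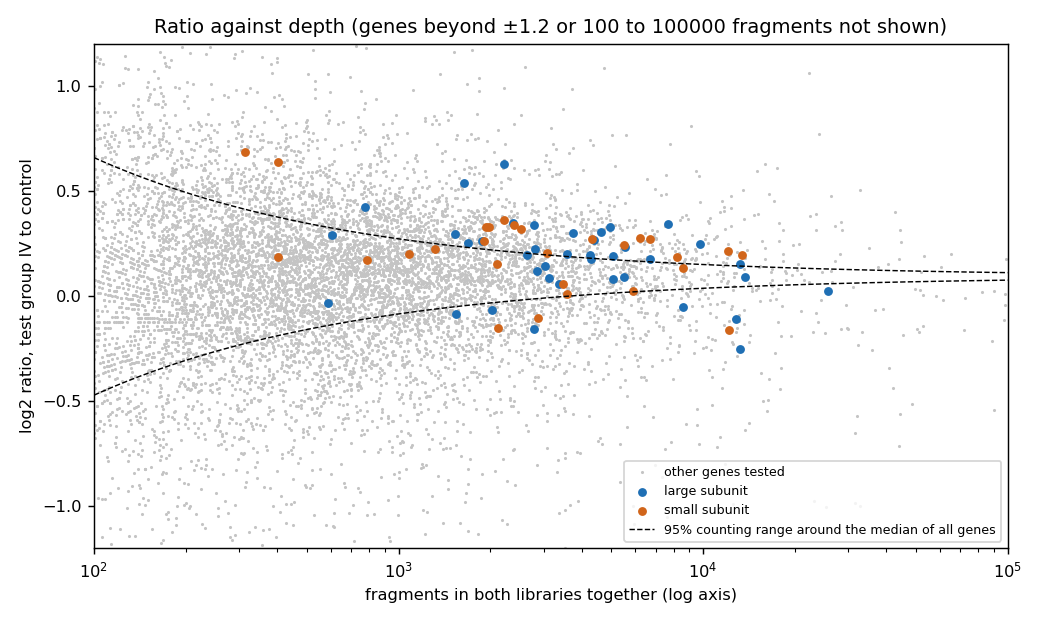
Log2 ratio (vertical) against the fragments of a gene in both libraries together (horizontal, log axis), with other genes tested in grey and members in colour. The dashed lines give the 95% counting range around the median of all genes (0.09), and the members, which had between 314 and 25648 fragments, lie on both sides of this range at depths where it is narrow.

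Among the outliers, RPS29, a small zinc-binding protein of the small subunit head, had 24.4 FPKM (114 fragments) in the control group and 39.2 FPKM (200 fragments) in test group IV. Its log2 ratio of 0.69 (95% interval from 0.35 to 1.03) was the highest of all members. RPS29 lies on chromosome 5 of Galgal5 from 57721101 to 57721662 and was the member with the fewest fragments. RPS21, on chromosome 20 from 8125418 to 8130006, had 4.08 FPKM (149 fragments) and 6.35 FPKM (253 fragments), a log2 ratio of 0.64 (from 0.34 to 0.94). Both high outliers had few fragments, and RPS21 had the lowest FPKM of the members. The low outliers rest on more. RPSA, the small subunit protein that is also known as the laminin receptor precursor, had 113 FPKM (6177 fragments) and 101 FPKM (6017 fragments), a log2 ratio of -0.16 (from -0.21 to -0.11). It lies on chromosome 2 from 44510182 to 44515049. RPS28, on chromosome 28 from 874867 to 875414, had 217 and 195 FPKM (1070 and 1050 fragments) and a log2 ratio of -0.15 (from -0.28 to -0.03). RPL4 and RPL35, the large subunit genes nearest to the limit, lay inside it at -2.83 and 2.75 scaled MADs from their median.

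In the large subunit, RPL35 and RPL4 marked the ends of the range. RPL35, a protein near the exit of the tunnel through which the new peptide leaves the ribosome, had 23.3 FPKM in the control group and 35.9 FPKM in test group IV. Its log2 ratio of 0.63 (from 0.50 to 0.75) rests on 824 and 1388 fragments. It was followed by RPL7L1 with 0.54 (from 0.39 to 0.68), by RPL38 with 0.42 (from 0.21 to 0.64) and by RPL27 with 0.35 (from 0.23 to 0.47). RPL38, a small protein at the surface of the subunit, had 24.9 and 33.4 FPKM, and RPL27 had 49.4 and 62.8 FPKM. RPL4, which reaches into the wall of the exit tunnel, was the lowest member, with 74.9 FPKM (6907 fragments) in the control group and 62.9 FPKM (6321 fragments) in test group IV. Its log2 ratio was -0.25 (from -0.30 to -0.20), and it lies on chromosome 10 from 18528211 to 18534374. RPL15 had 33.8 and 30.4 FPKM, a log2 ratio of -0.16 (from -0.26 to -0.05). RPL31 had 33.0 and 31.1 FPKM, and its interval, from -0.23 to 0.06, included 0. The 5 members whose interval lay below 0 were RPL4, RPL15, RPLP0, RPSA and RPS28.

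In the small subunit, RPS15A and RPS12 were highest after the outliers. RPS15A had 20.3 and 26.1 FPKM, a log2 ratio of 0.36 (from 0.24 to 0.48). RPS12 had 65.9 and 83.2 FPKM, a log2 ratio of 0.34 (from 0.22 to 0.46). Toward the lower end, RPS26 had 195 and 197 FPKM, nearly equal in the 2 libraries, with an interval from -0.08 to 0.11. RPS6, the substrate of the S6 kinases that act below mTOR, had 78.3 and 94.5 FPKM (2885 and 3794 fragments), a log2 ratio of 0.27 (from 0.20 to 0.34). RPS27A, which is made as a fusion with ubiquitin, had 64.6 and 71.8 FPKM, a log2 ratio of 0.15 (from 0.03 to 0.28).

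The stalk of the large subunit, which recruits the GTPases of translation, is built from RPLP0, RPLP1 and RPLP2. RPLP0 was abundant and lower in test group IV, with 298 and 277 FPKM (6365 and 6443 fragments) and a log2 ratio of -0.11 (from -0.16 to -0.06). RPLP1 had 210 and 224 FPKM, a log2 ratio of 0.09 (from 0.01 to 0.17), which is the median of all genes and turned to just below 0 under median ratio scaling. RPLP2 had 31.0 and 36.9 FPKM, a log2 ratio of 0.25 (from 0.11 to 0.39). The interval of RPLP0 thus lay below those of both other stalk genes, while the intervals of RPLP1 and RPLP2 overlapped. RPL5 and RPL11, which bind 5S ribosomal RNA together, were picked after their values had been seen. RPL5 had 40.7 and 42.3 FPKM, with an interval from -0.04 to 0.15, and RPL11 had 80.6 and 97.0 FPKM, a log2 ratio of 0.27 (from 0.18 to 0.35).

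The levels of the members spanned a wide range in both libraries and kept nearly the same order. On the FPKM scale, which divides by a length, large subunit genes ran from 15.3 to 544 in the control group, with a median of 76.5, and from 22.2 to 554 in test group IV, with a median of 84.3. Small subunit genes ran from 4.08 to 461 (median 65.5) and from 6.35 to 469 (median 79.4), respectively. Spearman's rho between the FPKM values of the 2 libraries was 0.986 over the 67 genes, which share libraries and length divisors. The highest level was that of RPL3L, with 544 FPKM in the control group and 554 FPKM in test group IV, on 12156 and 13492 fragments. RPL23, a protein of the subunit interface, had 478 and 531 FPKM, a log2 ratio of 0.15 (from 0.10 to 0.20). RPS19, known from its mutations in human Diamond-Blackfan anaemia, led the small subunit with 461 and 469 FPKM, and its interval, from -0.05 to 0.10, included 0. RPS24 had 217 and 253 FPKM, a log2 ratio of 0.22 (from 0.16 to 0.27).

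The ratio was lower among the more abundant members. The median log2 ratio was 0.16 for the 20 members with a mean FPKM of at least 100, 0.23 for the 23 members from 50 to 100 and 0.26 for the 24 members under 50. Over all genes tested, the medians in the same ranges were 0.06 (401 genes), 0.10 (531 genes) and 0.10 (10041 genes). Spearman's rho between log2 ratio and mean FPKM was -0.31 over the members, -0.55 in the small subunit and -0.10 in the large subunit. With the length divisor of FPKM, rho was -0.02 over the members. The points of these correlations come from the same 2 libraries, and the ratio and the mean share their values.

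Of the members, 4 are paralogs that carry the name of another ribosomal protein with an added L or L1. RPL3L, the paralog of RPL3 that is known from mammals as specific to skeletal muscle and heart, was far above its parent gene. RPL3 had 24.7 FPKM in the control group and 23.7 FPKM in test group IV (990 and 1032 fragments). In FPKM, RPL3L thus stood at 22.0 times RPL3 in the control group and 23.4 times in test group IV. The length divisor was 1700 bases for RPL3L and 3046 bases for RPL3. In fragments (12156 and 13492 for RPL3L) the multiple was therefore smaller. The log2 ratios were 0.03 for RPL3L (from -0.01 to 0.06) and -0.06 for RPL3 (from -0.19 to 0.06). Their difference was 0.09, with a counting interval from -0.04 to 0.22. RPL3L alone held 13.1% of the large subunit fragments in the control group. Without the paralogs the median log2 ratio of the members was 0.20 as well.

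The other pairs had the parent as the higher gene in FPKM. RPL7L1, whose yeast relative acts in assembly of the large subunit, had 15.3 and 22.2 FPKM (637 and 1009 fragments), and RPL7 had 79.6 and 90.0 FPKM. The log2 ratio of RPL7L1 exceeded that of RPL7 (0.18, from 0.11 to 0.25) by 0.36, with a counting interval from 0.20 to 0.52. RPL22L1 had 29.7 and 29.0 FPKM (284 and 303 fragments) and RPL22 had 69.7 and 85.7 FPKM, so that the log2 ratio of RPL22L1 was below that of RPL22 by a difference of -0.33 (from -0.60 to -0.05). RPS27L had 25.6 and 28.8 FPKM (353 and 434 fragments) and RPS27 had 53.4 and 60.8 FPKM (179 and 222 fragments). The length divisor was 1051 bases for RPS27L and 255 bases for RPS27, so RPS27 was higher in FPKM but lower in fragments. The log2 ratios of RPS27L and RPS27, 0.17 and 0.19, differed by -0.01 (from -0.36 to 0.34). How the counting assigned reads that match both genes of a pair is not given in the sources used here, and such reads were not separated.

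The members are spread over the genome. They lie on 28 chromosomes of Galgal5, with 3 members on unplaced scaffolds. On the Z chromosome lie RPS6, RPS23 and RPL37, which had log2 ratios of 0.27, 0.22 and 0.26, respectively. RPS23 had 71.9 and 84.0 FPKM and RPL37 had 24.4 and 29.3 FPKM. The 503 tested genes of the Z chromosome had a median log2 ratio of 0.13 and the 11 tested genes of the W chromosome a median of -0.18, and the part of the sex of the birds in these values was not tested.

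A feature that the rule did not use is the small nucleolar RNA gene. A listed snoRNA gene lay inside 19 of the 67 members (28.4%), and inside 65 of the 14944 listed genes that are not snoRNA genes (0.435%), members included. A snoRNA gene is listed only if it has a control fragment. The median of mean FPKM was 77.7 for the members and 6.62 for all genes tested. The part of this level in the shares was not tested. RPS12 is overlapped by 4 snoRNA genes, and RPSA, RPL12, RPL21 and RPL7A by more than 1. The median log2 ratio was 0.20 for the 19 members with a listed snoRNA gene inside and 0.20 for the 48 without. In all, 24 members overlap another listed gene. The libraries were made with a directional kit, but whether fragments were counted by strand is not given in the sources used here, so fragments of such neighbours were not separated. Without these 24 members the median log2 ratio of the rest was 0.20.

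Of the ribosomal proteins that go by other names, GNB2L1 and FAU are described. GNB2L1 (RACK1), a scaffold for signalling proteins on the small subunit, had 65.3 FPKM in the control group and 61.3 FPKM in test group IV, a log2 ratio of -0.09 (from -0.16 to -0.02). FAU, a fusion of a ubiquitin-like protein with a small subunit protein, had 50.7 and 54.3 FPKM, with an interval from -0.04 to 0.24. The interval of GNB2L1 thus lay below a ratio of 1, while that of FAU included it.

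The genes that work with the ribosome were compared through lists of other names. Of the other mRNAs known for a 5′ TOP tract, 10 were measured, and 7 of them (70%) were above a ratio of 1, compared with 60.8% of all genes tested. Their median log2 ratio was 0.08, close to the 0.09 of all genes. They ranged from EEF2, an elongation factor (206 and 175 FPKM, log2 ratio -0.23, from -0.27 to -0.20), to EEF1A1, the factor that brings aminoacyl-tRNA to the ribosome. EEF1A1 had 24.9 FPKM (3140 fragments) in the control group and 43.8 FPKM (6009 fragments) in test group IV, a log2 ratio of 0.81 (from 0.75 to 0.87), above every ribosomal protein gene. Its length divisor of 9585 bases was larger than the span of the gene in Galgal5. This lowers its FPKM in both libraries alike but not its ratio. Factors of ribosome biogenesis had a median log2 ratio of 0.30 over the 20 genes found. Of these, 16 (80%) were above a ratio of 1 and 8 at least 25% above the control group. Over all genes tested the shares were 60.8% and 24.1%. The highest of the 20 was WDR12, a factor of large subunit assembly (4.67 and 7.59 FPKM, log2 ratio 0.70, from 0.41 to 1.00). The lowest was UTP4, a factor of small subunit processing (4.40 and 3.87 FPKM), with an interval from -0.49 to 0.11.

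RNA polymerase I, which transcribes the large ribosomal RNAs, and its factors had a median log2 ratio of 0.10 over 9 tested genes. Of these 9, 5 (55.6%) were above a ratio of 1, compared with 60.8% of all genes tested. TWISTNB, a subunit of this polymerase, was highest with 6.60 and 9.61 FPKM (92 and 146 fragments), a log2 ratio of 0.54 (from 0.16 to 0.93). POLR1D was lowest with 29 and 22 fragments and an interval from -1.39 to 0.33. Genes that regulate the translation of TOP mRNAs had a median of 0.12 over 14 genes, 10 of them (71.4%) above a ratio of 1. They ranged from RPS6KA3, a kinase of the RSK family (26.5 and 20.4 FPKM, log2 ratio -0.38, from -0.51 to -0.25), to CNBP, a protein that binds TOP mRNAs (84.6 and 111 FPKM, log2 ratio 0.40, from 0.34 to 0.45).

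**Figure D4:**
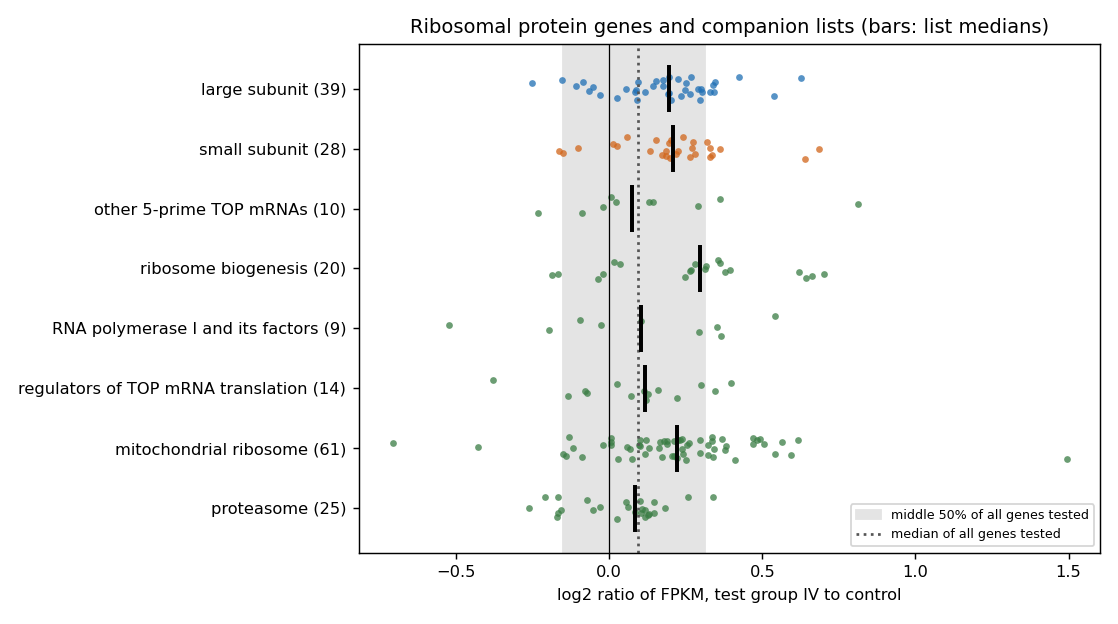
Log2 ratio of FPKM of single genes (points) in each subunit and in the companion lists, with list medians as black bars, the number of genes in brackets, and the middle 50% of all genes tested (from -0.15 to 0.31) as a grey band. The list medians run from 0.08 for the other TOP mRNAs and the proteasome, just below the median of all genes (0.09), over 0.10 for RNA polymerase I, 0.12 for the regulators, 0.19 and 0.21 for the large and small subunit and 0.22 for the mitochondrial ribosome to 0.30 for ribosome biogenesis.

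The mitochondrial ribosome, a separate particle whose proteins are encoded by other genes, had a median log2 ratio close to that of the cytosolic one. It was 0.22 over 61 genes, and 53 of them (86.9%) were above a ratio of 1, compared with 60.8% of all genes tested. Its genes were less abundant, with a median of mean FPKM of 16.9, compared with 77.7 for the cytosolic ribosomal protein genes. MRPS12 was highest, on 14 and 43 fragments (log2 ratio 1.49, from 0.60 to 2.48), and MRPS7 lowest, with 6.82 and 4.17 FPKM (log2 ratio -0.71, from -0.88 to -0.53). The proteasome is another large complex with fixed numbers of subunits, and its median of mean FPKM was 69.9. It had a median log2 ratio of 0.08 over 25 genes, 16 of them (64%) above a ratio of 1. It ranged from PSMD11 at -0.26 to PSMC6 at 0.34.

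The libraries also differed in other transcripts. Of the fragments, 7.69% came from mitochondrial genes for the control group and 9.05% for test group IV, and since FPKM is a share of all fragments, this moves every other value. Leaving out these genes and the 10 most abundant genes gave a median log2 ratio of 0.21 for the members. The summed FPKM of 5 of 6 leukocyte markers was 184 and 239, of which CD74 had 154 and 207. The other leukocyte markers summed to 29.9 and 31.5. Of the 5, 3 were higher in test group IV, compared with 60.8% of all genes tested. The same share of all genes applies to the marker counts below. For fibroblasts the sums were 315 and 368 (5 of 6 genes found, 4 of them higher). For myogenic and satellite cells they were 65.8 and 105 (3 of 4 found, all higher), of which MYOD1 had 54.4 and 89.5. For melanocytes they were 22.6 and 43.5 (6 of 7 found, all higher), of which MITF had 21.1 and 32.9. For adipocytes (2 of 3 found, both lower) they were 55.2 and 37.2, nearly all from ADIPOQ. Endothelial markers (3 of 4 found) had 37.2 and 37.9, and erythroid markers (3 of 7) 23.7 and 23.3, of which HBAA had 19.1 and 18.4. Of the slow fibre markers, 3 of 5 were found, all of them lower in test group IV. TNNC1 alone had 9768 and 8333 FPKM. The others, TNNI1 (16 and 6 fragments) and MYL3 (4 and 2 fragments), summed to 1.35 and 0.480. In level TNNC1 stood near the fast troponin genes TNNT3 (9943 and 9424 FPKM) and TNNI2 (8007 and 8638 FPKM). Whether the lower values of the slow fibre markers come from fewer slow fibres was not tested. Skeletal muscle markers had 17951 and 18061. The part of these markers in the ratios of the ribosomal protein genes was not tested, and in a tissue more cells of a type cannot be told apart from more RNA per cell.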

How the data were processed

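Breast muscle RNA of 3 birds per group was pooled and sequenced as 1 directional, paired-end library for the control group and 1 for test group IV. Groups were taken from the diet in the labels. According to the methods, Seqtk was used for trimming, TopHat 2.0.9 for mapping to Galgal5 and StringTie 1.3.0 for the number of fragments per gene, and the submitters' processing notes also name HISAT2 and FastQC. The authors deposited whole-number counts per gene, in all 13135159 and 14318101. The FPKM values deposited by the authors divide the count by a length and the depth. A trimmed mean normalization is described in the methods, but the depths that the deposited FPKM values imply have a ratio of 1.09025, close to the 1.09006 of the unscaled totals. Genes without any control fragment are not in the lists and were not analysed here.

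The FPKM values were used as deposited. A gene was compared if it reached 1 FPKM in either library and had fragments in both. At these depths 3 fragments are 2.28e-05% and 2.10e-05% of the counts, and every member had more. With 1 library per group no count model was fitted. Differences within paralog pairs have an interval by normal approximation. The rule for named genes took outliers, the 4 highest and 4 lowest ratios, the 3 highest levels and the lowest level per subunit, RPLP0, RPLP1, RPLP2, RPSA, RPS6, RPS27A, paralogs with their parents, Z-linked members, the ribosomal proteins under other names, and the highest and lowest gene of each other companion list. Some genes that this rule takes are not reported here. Members, lists and rule were chosen with earlier results of these data known. Older symbols were matched through RefSeq (GRCg7b), of which no coordinates were used. Calculations were done in Python (3.11.15; scipy 1.17.1, pandas 2.3.3, numpy 2.4.6) and tested on simulated data. Other scalings, constants added to FPKM, other filters and left-out members were tried as alternatives.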

Additional observations from a re-analysis of the deposited data

How the results depend on the processing

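No paired analysis was possible because each group is a single library, and for the same reason no replicate could be left out. The medians kept their direction under all 12 alternatives, of which 3 that leave out members (those overlapping another gene, those on the Z chromosome or unplaced scaffolds, and those under 500 fragments) were chosen after seeing the data. Some of the 12 could not reverse a direction. All members passed the filter on low values, so its removal changed nothing. A constant added to both FPKM values cannot reverse a ratio. Shares of all counts rest on nearly the same depths as the deposited FPKM values. The libraries' scale mattered most. Under median ratio scaling the median log2 ratio was 0.11 over all members, 0.10 for the large and 0.12 for the small subunit, compared with 0.20, 0.19 and 0.21, and TMM scaling of the counts also gave 0.11, 0.10 and 0.12. Each of these scalings left 5 members at least 25% above the control group, in place of 13, and 1 in place of 0 in the other direction. Each also gave a summed level ratio of 1.03 over all members, 1.03 for the large and 1.03 for the small subunit, compared with 1.10 for each. RPLP1 turned to -0.0011 under median ratio scaling and to -0.0016 under TMM scaling on the log2 scale. The other summed ratios that moved beyond counting error were 1.12 for the small subunit in shares of counts without mitochondrial and the 10 most abundant genes, 1.08 for the large subunit in shares of all counts, 1.11 for the large subunit without paralogs, and 1.09 for the large subunit without members that overlap another gene. Depth limits the members with few fragments, such as RPS29 and RPS27. The spread between libraries of the same diet is unknown.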

Other observations

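The length by which the deposited FPKM values divide was calculated from each gene's count and FPKM. For the members it ran from 255 bases (RPS27) to 7021 bases (RPL4), with a median of 1751, compared with 2262 for all genes tested. For 3 members the divisor was larger than the span of the whole gene in Galgal5 (among them RPL4 with 7021 against 6164 bases and RPS15 with 1759 against 1727 bases). This was also seen in 345 of the 15073 listed genes (2.29%). A divisor beyond the span lowers the FPKM of such a gene in both libraries alike, so that levels between members are affected and ratios are not. RPS21, the member with the lowest FPKM, had a divisor of 2783 bases.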
